A study of Saccharomyces cerevisiae with 7 samples.

Results

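RNA polymerase I (Pol I) is the enzyme that transcribes the ribosomal RNA precursor, and 10 of its genes were followed here through 7 yeast transcriptomes. The 10 genes were taken by name from the 5110 genes counted in every library. They comprise the 7 subunits that belong to Pol I alone (*RPA190*, *RPA135*, *RPA49*, *RPA43*, *RPA34*, *RPA14* and *RPA12*) and 3 of its factors (*RRN3*, *UAF30* and *HMO1*). Ribosome-depleted RNA was sequenced from 1 library of each genotype, so no difference below has a replicate check.

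The study asked what the nucleolar histone chaperone paralogs Fpr3 and Fpr4 do to the transcriptome. Each mutant is named by the genes it lacks. The *fpr3*, *fpr4* and *sir2* strains were single deletions isogenic to BY4741, the haploid laboratory strain that served as wild type. The *fpr3fpr4* strain was built by deleting *FPR4* in the *fpr3* strain. Sir2 is a histone deacetylase that silences ribosomal DNA (rDNA) chromatin. A further pair of haploids came from a genetic array cross and both lacked *TRF5*, which encodes a poly(A) polymerase that marks nuclear RNAs for degradation. These were the triple mutant *trf5fpr3fpr4* and *trf5fpr3*, which keeps Fpr4. Because *trf5fpr3* lacks Fpr3 as well, that pair was meant to differ in Fpr4 alone. By the study's methods, the query strain of the cross lacked the chromosomal *FPR4* gene and carried a working copy on a plasmid, which was kept by selection in progeny such as *trf5fpr3* and removed from the triple mutant. If the sequenced strains were selected in the same way, the pair also differs in that plasmid. Cells of every genotype came from single colonies grown to midlog phase in rich medium (YPD). The cross strains and the BY4741 strains differ in their construction, so the loss of Trf5 cannot be told apart from that difference.

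The libraries held 627679 to 1242534 reads counted in genes, with a median of 35 to 55 reads per gene. *FPR3*, *FPR4* and *SIR2* had 0 reads wherever they were deleted. *TRF5* had 0 reads in *trf5fpr3* and 2 reads in *trf5fpr3fpr4*. Expression is given as reads and as RPKM, reads scaled to gene length and library total. A gene was called when a chi-square test of its reads between 2 libraries gave an adjusted p below 0.05 and its RPKM + 1 differed at least 1.3-fold. Such a test compares 2 libraries rather than 2 genotypes, and all intervals below are 95% intervals that cover counting error only.

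In yeast, Pol I is recruited to the rDNA promoter by Rrn3 together with upstream activating factor and core factor. Its large subunits Rpa190 and Rpa135 form the active center, and Rpa12 assists in cleavage of the nascent RNA. Rpa43 and Rpa14 form the stalk, through which Rrn3 binds, and Rpa49 and Rpa34 form a dimer that helps initiation and elongation. Uaf30 is a subunit of upstream activating factor. Hmo1 is a high mobility group (HMG-box) protein that binds rDNA and the promoters of ribosomal protein genes.

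The promoters of 6 of the 7 subunit genes hold a pair of sequence elements, and the stretches with both are printed here because the elements are known targets of ribosome biogenesis regulators. The PAC element (core GATGAG) is bound by the repressors Dot6 and Tod6, and the RRPE element (core AAAAATTTT) is bound by Stb3. Both are hallmarks of ribosome biogenesis genes in yeast. Within the 300 bases before the start codon, on either strand and allowing overlaps, the PAC core was found in 8 of the 10 genes and in 19.13% of 6001 promoters of the same length. The RRPE core was found in 6 of the 10 genes and in 7.33% of these promoters. Both cores occurred in 6 of the 10 genes, all of them subunits, and in 3.67% of promoters. In the sequences below, read 5′ to 3′ on the strand of the gene from the RefSeq R64 genome (sacCer3), capitals mark the cores. A run of AAAAATTTTT holds the RRPE core once on each strand, and CTCATCTCATC holds the PAC core of the other strand in overlapping copies.
RPA190: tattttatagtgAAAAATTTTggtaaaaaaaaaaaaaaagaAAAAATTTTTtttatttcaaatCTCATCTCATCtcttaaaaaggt
RPA135: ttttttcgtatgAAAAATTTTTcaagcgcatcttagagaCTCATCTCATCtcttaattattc
RPA49: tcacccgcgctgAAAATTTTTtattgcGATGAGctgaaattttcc
RPA43: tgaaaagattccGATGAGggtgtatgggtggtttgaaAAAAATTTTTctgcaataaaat
RPA34: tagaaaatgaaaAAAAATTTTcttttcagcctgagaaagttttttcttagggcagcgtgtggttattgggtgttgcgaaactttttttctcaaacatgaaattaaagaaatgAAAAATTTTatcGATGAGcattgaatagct
RPA14: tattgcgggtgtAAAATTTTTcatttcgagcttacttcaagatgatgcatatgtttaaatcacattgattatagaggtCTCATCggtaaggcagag

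These stretches lie at chrXV:960752-960837 (*RPA190*), chrXVI:581283-581344 (*RPA135*, minus strand), chrXIV:182721-182765 (*RPA49*, minus strand), chrXV:960318-960376 (*RPA43*, minus strand), chrX:140203-140344 (*RPA34*) and chrIV:769388-769483 (*RPA14*). *RRN3* and *UAF30* carried a PAC core without an RRPE core, and neither core was found in this window of *RPA12* and *HMO1*. Among the subunits of the other polymerases, the PAC core was present in 8 of 10 Pol III subunit genes, 2 of 7 genes for subunits shared between polymerases and 0 of 7 Pol II subunit genes. The RRPE core was present in 5 of 10 Pol III, 3 of 7 shared and 2 of 7 Pol II subunit genes, and both cores in 5 of 10, 1 of 7 and 0 of 7, so the pair was not particular to Pol I. The largest subunit gene, *RPA190* (YOR341W, chrXV:960987-965981), and *RPA43* (YOR340C, chrXV:959202-960182) are neighbors transcribed away from each other with 804 bases between their start codons, so their promoters lie in 1 shared interval.

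Transcript levels of the 2 large subunit genes were well above the typical gene, while *RRN3* and *UAF30* had the 2 lowest levels of the 10 in every library. *RPA190* and *RPA135* ranked by RPKM at percentiles 83.7 to 92.5 (*RPA190*) and 87.7 to 92.7 (*RPA135*) of all genes over the 7 libraries, and *HMO1* at percentiles 88.1 to 92.2. In wild type the order was *HMO1*, *RPA135*, *RPA190*, *RPA49*, *RPA12*, *RPA43*, *RPA14*, *RPA34*, *RRN3* and *UAF30*. Neighbors in that order that did not differ beyond counting error were *HMO1* and *RPA135*, *RPA135* and *RPA190*, *RPA49* and *RPA12*, and *RPA43* and *RPA14*. *RPA190* was at 338 RPKM in *fpr3*, 307 in *fpr4*, 289 in *fpr3fpr4* and 380 in *sir2*, against 329 in wild type, and at 178 in *trf5fpr3fpr4* against 251 in *trf5fpr3*. *RPA135* (YPR010C, chrXVI:577585-581196) was at 388 RPKM in *fpr3*, 303 in *fpr4*, 286 in *fpr3fpr4* and 349 in *sir2*, against 335 in wild type, and at 249 in *trf5fpr3fpr4* against 294 in *trf5fpr3*. Both large subunit genes were thus lowest in the triple mutant, where *RPA190* fell to the seventh place among the 10.

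*RPA49* (YNL248C, chrXIV:181361-182608) was at 197 RPKM in *fpr3*, 157 in *fpr4*, 206 in *fpr3fpr4* and 237 in *sir2*, against 169 in wild type, and at 197 in *trf5fpr3fpr4* against 156 in *trf5fpr3*. Its partner *RPA34* (YJL148W, chrX:140437-141138) was lower, at 52.2 RPKM in *fpr3*, 54.5 in *fpr4*, 39.5 in *fpr3fpr4* and 60.8 in *sir2*, against 53.4 in wild type. In the cross strains *RPA34* was at 127 RPKM in *trf5fpr3fpr4* and 101 in *trf5fpr3*, above all 5 libraries of the BY4741 strains. Partners in the dimer thus differed in their transcript levels. *RPA49* was highest in *sir2*, and *RPA34* was higher in the cross strains than in the BY4741 strains. Between the cross strains *RPA34* was not called, with 56 reads in *trf5fpr3fpr4* against 58 in *trf5fpr3* (log2 fold change 0.33, and -0.19 relative to genes of similar length).

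The stalk gene *RPA43* was at 149 RPKM in *fpr3*, 98.4 in *fpr4*, 116 in *fpr3fpr4* and 139 in *sir2*, against 105 in wild type, and at 205 in *trf5fpr3fpr4* against 149 in *trf5fpr3*. The active-center gene *RPA12* (YJR063W, chrX:555195-555572) was at 186 RPKM in *fpr3*, 140 in *fpr4*, 184 in *fpr3fpr4* and 196 in *sir2*, against 160 in wild type, and at 316 in *trf5fpr3fpr4* against 168 in *trf5fpr3*. Both were highest in the triple mutant.

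Of the factors, *HMO1* (YDR174W, chrIV:812110-812850) stood at 319 to 359 RPKM in 6 libraries and at 216 in *trf5fpr3*. *RRN3* (YKL125W, chrXI:208247-210130) was at 21.2 to 46.5 RPKM and *UAF30* (YOR295W, chrXV:869208-869894) at 8.65 to 25.5, and both were highest in the triple mutant. *UAF30* had 6 to 11 reads per library, so that a change of its transcript was hardly measurable at this depth.

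**Figure D1:**
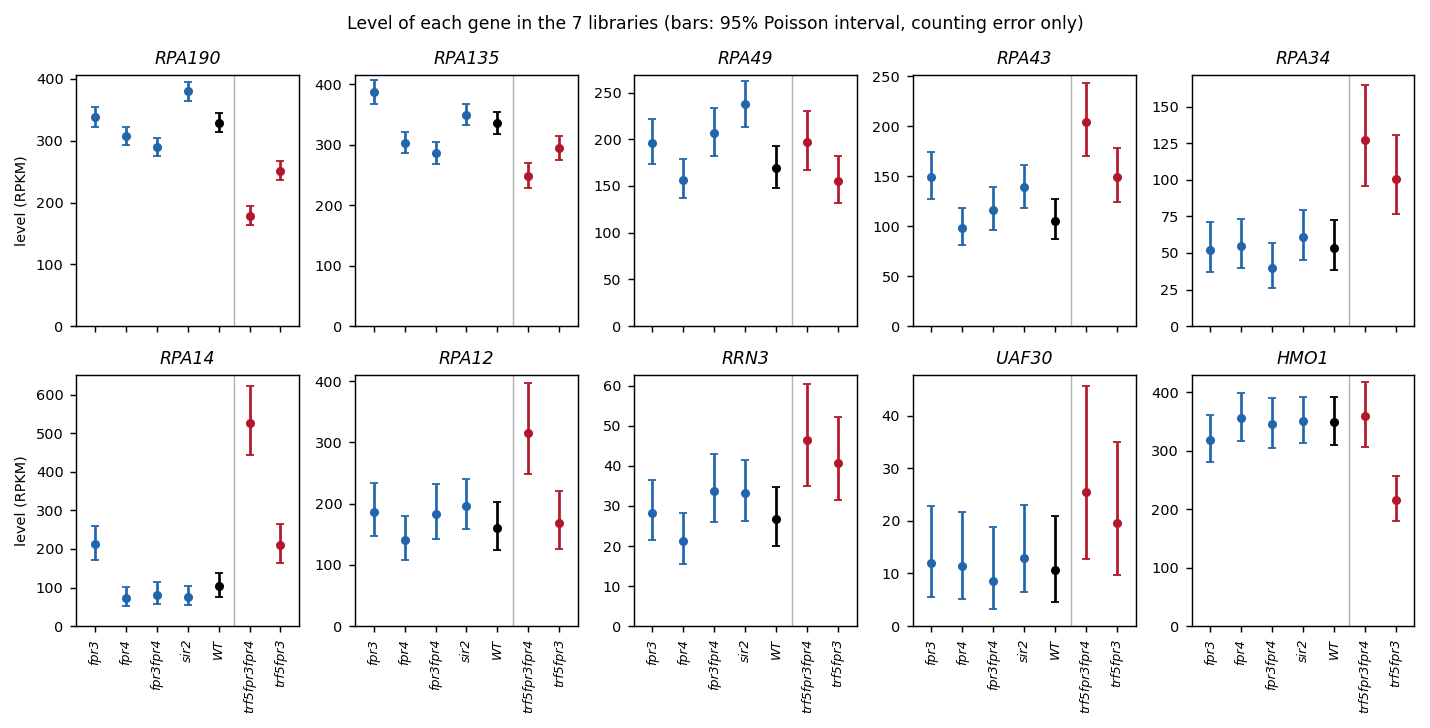
Level in RPKM (vertical axes, linear and starting at 0) of each of the 10 genes in the 7 libraries, with 95% Poisson intervals of the reads; blue points are BY4741-background mutants, the black point is wild type and red points right of the line are the cross strains. *RPA14* runs between 73.5 RPKM in *fpr4* and 527 in *trf5fpr3fpr4*, while *HMO1* departs from its other libraries in *trf5fpr3* at 216.

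*RPA14* (YDR156W, chrIV:769525-769938), the small stalk subunit, varied more than the other 9 genes, by 7.17-fold between its lowest and highest library. It had 96 reads (212 RPKM) in *fpr3*, 35 (73.5) in *fpr4*, 34 (81.4) in *fpr3fpr4* and 39 (75.8) in *sir2*, against 47 (104) in wild type. It had 137 reads (527 RPKM) in *trf5fpr3fpr4* against 71 (209) in *trf5fpr3*. The high libraries are thus those of *fpr3* and of the cross strains, and the remaining 4 lie at or below 104 RPKM. *RPA14* took place 4 among the 10 genes in *fpr3* and *trf5fpr3*, place 1 in the triple mutant and place 7 in the other 4 libraries. The counted genes on either side did not follow this order. *CPR1*, transcribed away from *RPA14*, changed by 0.31 and *HOM2*, downstream on the same strand, by -0.01 (log2) in *fpr3* over wild type. An annotated reading frame on the same strand, YDR157W, shares the last 8 bases of *RPA14* and is not among the counted genes.

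A ratio of 2 genes within 1 library does not depend on the library total. *RPA12* has nearly the length of *RPA14* (378 and 414 bases), so their ratio is also little touched by any trend with gene length. *RPA14* over *RPA12* was 1.14 (0.83 to 1.56) in *fpr3*, 0.52 (0.34 to 0.81) in *fpr4*, 0.44 (0.29 to 0.68) in *fpr3fpr4* and 0.39 (0.26 to 0.57) in *sir2*, against 0.65 (0.44 to 0.96) in wild type. It was 1.67 (1.25 to 2.24) in *trf5fpr3fpr4* against 1.25 (0.86 to 1.82) in *trf5fpr3*. The intervals of *fpr3* and wild type overlapped. The lower bound in the triple mutant, 1.25, lay above the upper bound of 0.96 in wild type. *RPA190* over *RPA135* stayed in a narrower band, at 0.87 in *fpr3*, 1.01 in *fpr4*, 1.01 in *fpr3fpr4* and 1.09 in *sir2*, against 0.98 in wild type. It was 0.72 (0.64 to 0.81) in *trf5fpr3fpr4* against 0.85 (0.78 to 0.93) in *trf5fpr3*.

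**Figure D2:**
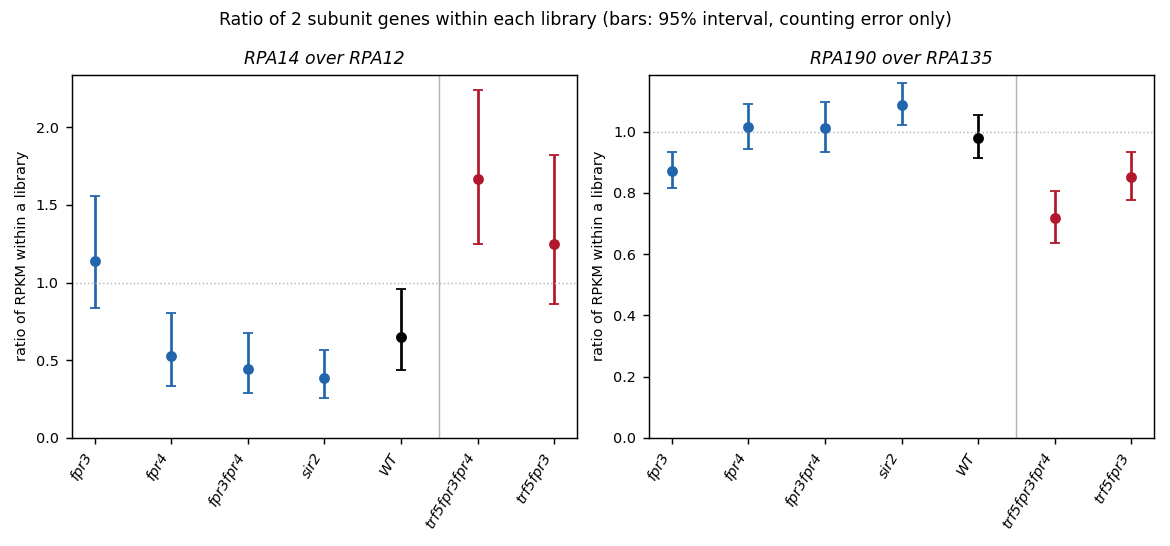
Ratio of the RPKM of *RPA14* to that of *RPA12* (left) and of *RPA190* to *RPA135* (right) within each library, with exact 95% intervals for counting error; blue is BY4741-background mutants, black wild type and red the cross strains. The stalk gene is above *RPA12* in *fpr3* (1.14), *trf5fpr3fpr4* (1.67) and *trf5fpr3* (1.25) and below it in the other 4 libraries.

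In *fpr3* cells, 2 of the 10 genes were called higher than in wild type and 0 lower, and the 2 were the genes of the stalk. Over all 4771 genes tested, 4.19% were called higher and 8.07% lower. *RPA14* was 2.03-fold higher, a log2 fold change of 1.02 (0.51 to 1.57), with an adjusted p of 0.000841 in the chi-square test. *RPA43* had a log2 fold change of 0.50 (0.15 to 0.86) and an adjusted p of 0.0318 in the same chi-square test. *RPA135* differed by 0.21 (0.10 to 0.32), which is under 1.3-fold. The median log2 fold change was 0.18 for the 10 genes and -0.10 for all genes tested, so the genes lay above the typical transcript by more than their raw values show. When every gene was set to the median, 9 of the 10 lay above it and the calls stayed at the same 2 genes. Over all genes the calls then ran to 305 higher and 212 lower, in place of 200 higher and 385 lower. Set against the 200 genes nearest in length, *RPA14*, *RPA43* and *RPA135* were called higher, where 6.46% of all genes were called higher and 10.8% in either direction. The call of *RPA43* was lost in edgeR with an assumed biological variation (adjusted p 0.33).

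In *fpr4* cells, 0 of the 10 genes were called against wild type, where 3.87% of 4777 genes were called higher and 9.27% lower. *RPA190* (log2 fold change -0.10) and *RPA135* (-0.14) had an unadjusted p below 0.05 in the chi-square test, but not an adjusted one. With every gene set to the median, these 2 genes were at 0.003 and -0.05. Relative to genes of similar length they were at 0.11 and 0.09. With edgeR, 0 of the 10 genes were called as well, where 1.49% of all genes were. *RPA14* was lowest of the 10 at -0.49 (-1.17 to 0.16), an interval that includes 0. The median of the 10 genes was -0.10, next to -0.10 for all genes.

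In *fpr3fpr4* cells, likewise 0 of the 10 genes were called against wild type by the chi-square rule or by edgeR. The chi-square rule called 5.07% of 4755 genes higher and 9.36% lower, and edgeR called 2.19% in either direction. *RPA190* at -0.18 (-0.28 to -0.08), *RPA135* at -0.23 (-0.35 to -0.11) and *RPA49* at 0.28 (0.02 to 0.55) had an unadjusted p below 0.05 in the chi-square test. The large subunit genes passed the test on reads but changed by under 1.3-fold. Relative to genes of similar length, *RPA190* was at 0.05, *RPA135* at 0.02 and *RPA49* at 0.35, and none of them was called. *RPA14* had a log2 fold change of -0.35 (-1.03 to 0.32). The calls over all genes depended on scaling in these 2 comparisons too. Set to the median, they ran to 292 higher and 258 lower in *fpr4* (185 and 443 as deposited), and to 357 higher and 302 lower in *fpr3fpr4* (241 and 445).

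**Figure D3:**
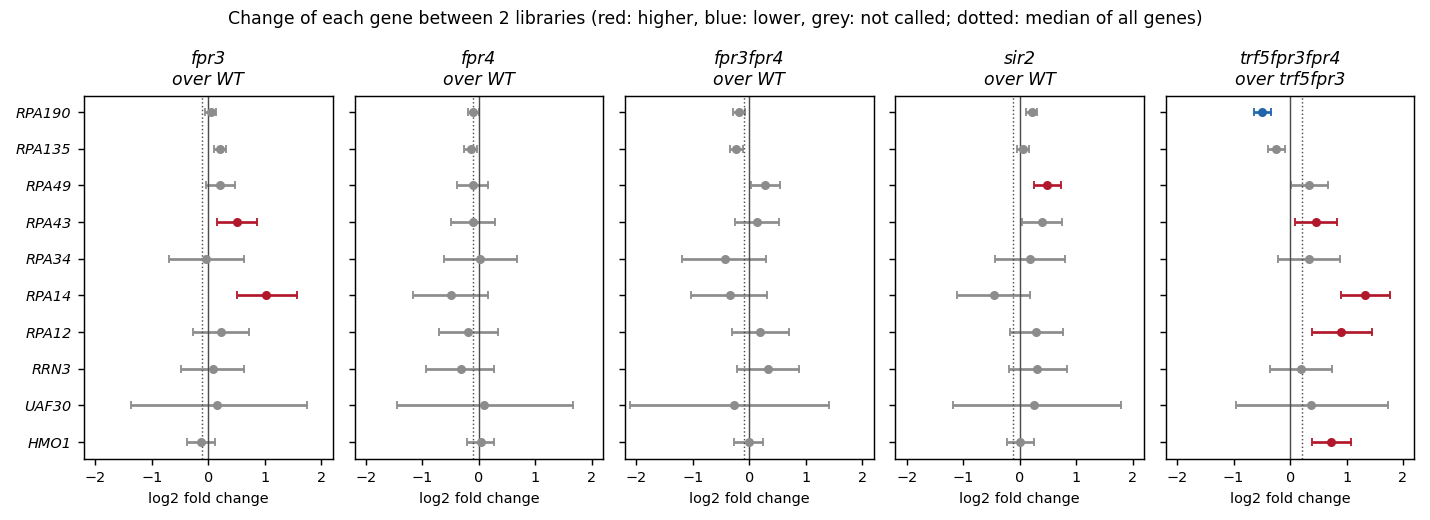
Log2 fold change (horizontal axes) of each gene in 5 comparisons, with exact 95% intervals for counting error; red points were called higher, blue lower and grey not called, the solid line is 0 and the dotted line the median of all genes. The stalk genes *RPA14* (1.02) and *RPA43* (0.50) are higher in *fpr3*, and 5 genes are called in *trf5fpr3fpr4*.

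The single mutants and the double mutant were then compared with each other. The 4 libraries enter several comparisons, so that the high *RPA14* value of the 1 *fpr3* library counts in each one that uses it. In *fpr4* against *fpr3*, 2 of the 10 genes were called lower and 0 higher, with 5.81% and 5.35% of 4782 genes called lower and higher. These were again the stalk genes. *RPA14* had a log2 fold change of -1.52 (-2.13 to -0.96), 2.86-fold lower, with an adjusted p of 1.04e-06 in the chi-square test. *RPA43* was at -0.60 (-0.96 to -0.24), with an adjusted p of 0.00884 in the chi-square test, and was not called in edgeR with an assumed variation (adjusted p 0.34). *RPA135* at -0.35 and *RPA190* at -0.14 passed the test below the fold threshold.

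In *fpr3fpr4* against *fpr3*, 2 of the 10 genes were called lower and 0 higher, where 4.90% of 4757 genes were called lower and 5.09% higher. *RPA14* was 2.59-fold lower, at -1.37 (-1.99 to -0.81), with an adjusted p of 2.18e-05 in the chi-square test. *RPA135* was at -0.44 (-0.55 to -0.32), with an adjusted p of 2.58e-12 in the chi-square test. Relative to genes of similar length *RPA135* was at -0.37 and fell just under the fold threshold, and in edgeR with an assumed variation its adjusted p was 0.38. In *fpr3fpr4* against *fpr4*, *RPA49* was called higher, at 0.39 (0.13 to 0.66) with an adjusted p of 0.0311 in the chi-square test, and 0 genes were called lower. Over 4758 genes, 3.59% were called higher and 2.67% lower. *RPA49* lay close to the 1.3-fold line and was not called relative to genes of similar length (0.37) or in edgeR with an assumed variation (adjusted p 0.76).

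The change between libraries with and without Fpr4 was compared between cells without and with Fpr3, as a ratio of ratios. This value is the log2 change of *fpr3fpr4* over *fpr3* minus that of *fpr4* over wild type. In 10.5% of 4853 genes it differed from 0 at an adjusted p below 0.05. Of the 10 genes, *RPA135* did so, at -0.29 (-0.45 to -0.13) with an adjusted p of 0.00627 from a Wald test on the 4 counts, which takes binomial counting error alone. *RPA190* passed as well when values were centered on the median of all genes (-0.23) and relative to genes of similar length (-0.25). The value of *RPA14* was larger, -0.88 (-1.72 to -0.03), but with so few reads its adjusted p was 0.187 in the same test on binomial counting error.

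In *sir2* cells, *RPA49* was called higher than in wild type and 0 of the 10 genes lower, with 5.20% of 4766 genes called higher and 14.6% lower. *RPA49* had a log2 fold change of 0.48 (0.25 to 0.73), from 368 reads in *sir2* against 231 in wild type, with an adjusted p of 0.000524 in the chi-square test. Of the 10 genes, 9 were above 0 and *RPA14* was below at -0.45 (-1.11 to 0.19). Their median was 0.23, and that of all genes -0.13. *RPA190* differed by 0.21 (0.12 to 0.30), under 1.3-fold. When every gene was set to the median, *RPA43* was also called, at 0.52 with an adjusted p of 0.0161 in the chi-square test. All-gene calls then ran to 426 higher and 457 lower, in place of 248 and 697. Relative to genes of similar length, *RPA49* (0.64), *RPA43* (0.50) and *RPA190* (0.38) were called higher. By that rule 8.62% of all genes were called higher and 18.1% in either direction. In edgeR with an assumed variation, *RPA49* was not called (adjusted p 0.12). Reads of the 7 subunit genes together made up 0.374% (0.363 to 0.385) of the *sir2* library and 0.331% (0.320 to 0.342) of the wild-type library (Wilson intervals). The share was similar in *fpr3*, at 0.3675% (0.356 to 0.379). It was lower than in wild type in *fpr4* (0.3045%), *fpr3fpr4* (0.298%), *trf5fpr3* (0.288%) and *trf5fpr3fpr4* (0.266%). *RPA190* and *RPA135* held 2358 and 1568 of the 4647 subunit reads in *sir2*.

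The Pol I genes differed in both directions between the cross strains. In *trf5fpr3fpr4* against *trf5fpr3*, 4 of the 10 genes were called higher and 1 lower, with 20.7% of 4733 genes called higher and 7.42% lower. The 4 were *RPA14*, *RPA12*, *RPA43* and *HMO1*, each under 1000 bases, and the 1 was the longest gene, *RPA190*. *RPA14* had 137 reads against 71, a log2 fold change of 1.33 (0.91 to 1.77) and an adjusted p of 1.25e-09 in the chi-square test. *RPA12* had 75 reads against 52, at 0.91 (0.38 to 1.45) with an adjusted p of 0.00229 in the chi-square test. *HMO1* had 167 reads against 131, at 0.73 (0.40 to 1.08) with an adjusted p of 9.81e-05 in the chi-square test. *RPA43* had 126 reads against 120, at 0.45 (0.08 to 0.83) with an adjusted p of 0.0441 in the chi-square test. *RPA190* had 559 reads against 1026, at -0.49 (-0.64 to -0.34) with an adjusted p of 1.42e-09 in the chi-square test.

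In this comparison the median of all genes was 0.20. Set to that median, *RPA43* was not called (0.24), *RPA135* was called lower at -0.45, and the calls over all genes ran to 622 higher and 649 lower in place of 978 and 351. In edgeR with an assumed variation, *RPA14* and *RPA190* were called, where 12.2% of all genes were. The order of the 7 subunit genes by change was nearly the reverse of their order by length (Spearman's rho -0.86 across 7 genes). All genes showed a trend of the same direction, with a rho of -0.35 across 4733 genes of this pair of libraries, and -0.16 to -0.01 in the other 7 comparisons. Genes are not independent replicates, and each of these values rests on 2 libraries. The median log2 fold change was 0.85 for genes up to 500 bases, 0.43 for those of 501 to 1000 bases, 0.18 for those of 1001 to 1500 bases and -0.14 for those over 3000 bases.

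Relative to the 200 genes nearest in length, 0 of the 10 genes were called in this comparison, where 22.6% of all genes were called in either direction. That rule was added after the data were seen. *RPA14* stood 0.45 above its length neighbors with an adjusted p of 0.0957 in the chi-square test. *RPA190* stood 0.31 below its neighbors (-0.31), with an adjusted p of 0.000288 in the chi-square test, which is under 1.3-fold. *RPA12*, 378 bases long, was at 0.05 and *HMO1* at 0.36. The 5 calls of this pair of libraries were thus lost when each gene was set against genes of its own length, and the cause of the length trend was not tested.

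**Figure D4:**
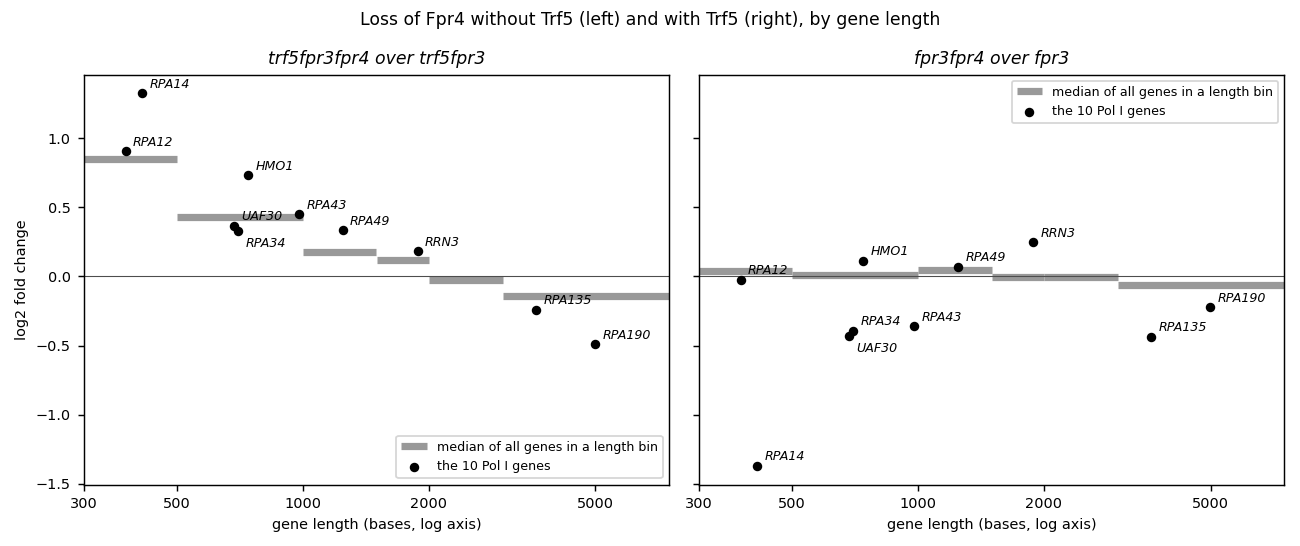
Log2 fold change on loss of Fpr4 (vertical axis) against gene length in bases (log axis), in *trf5fpr3fpr4* over *trf5fpr3* (left) and in *fpr3fpr4* over *fpr3* (right); black points are the 10 genes and grey bars the median of all genes in a length bin. On the left the bars descend between 0.85 and -0.14 and the Pol I genes descend with them, while on the right *RPA14* at -1.37 lies far below flat bars.

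The change on loss of Fpr4 was compared between cells without and with Trf5, as the log2 change of *trf5fpr3fpr4* over *trf5fpr3* minus that of *fpr3fpr4* over *fpr3*. It differed from 0 in 19.0% of 4860 genes and in 5 of the 10 Pol I genes. *RPA14* had the largest value of the 10, 2.70 ± 0.36 (standard error), with an adjusted p of 2.14e-12 from a Wald test on 4 counts with binomial counting error. Its transcript was higher without Fpr4 in the *trf5* pair and lower without Fpr4 in the pair with Trf5. *RPA12* (0.93), *RPA43* (0.81), *HMO1* (0.62) and *RPA190* (-0.27) also passed. Relative to genes of similar length, *RPA14* was at 1.92 and *RPA135* at 0.40, and these 2 genes passed where 16.1% of all genes did. The *fpr3* library, in which *RPA14* was high, is the reference of the pair with Trf5.

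Among 7 further initiation factor genes (*RRN5*, *RRN6*, *RRN7*, *RRN9*, *RRN10*, *RRN11* and *SPT15*), 0 were called in *fpr3*, *fpr4* or *fpr3fpr4* against wild type. Of all genes, 12.3%, 13.1% and 14.4% were called in either direction in these comparisons, and 5.20% were called higher in *sir2*. In *sir2* 1 of 7 was called higher, *RRN6*, a core factor subunit, at 33.3 RPKM against 20.4 in wild type (log2 fold change 0.68). In *trf5fpr3fpr4* against *trf5fpr3*, the core factor genes *RRN6* (0.69) and *RRN11* (1.26) were called higher and *SPT15*, encoding the TATA-binding protein, lower (-0.85). That is 3 of 7 genes, where 28.1% of all genes were called in either direction, and these 3 were also called relative to genes of similar length, while *RRN6* was not called once values were rescaled to a median of 0 (0.48). *RRN5*, an upstream activating factor gene named after its values were seen, was called lower in *fpr3fpr4* than in *fpr3*, with 10 reads against 31 (-1.42). *RRN9*, of the same factor, had 14 to 38 reads and was not called in any of the 8 comparisons.

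Pol I shares subunits with Pol II and Pol III, and these genes were counted alongside. Of 7 shared subunit genes, *RPB10* was called lower in *fpr3*, with 39 reads against 71 in wild type (-0.86). In *sir2*, *RPB5* was called higher (0.71) and *RPB10* lower (-0.66). In the triple mutant *RPB10* (1.20), *RPB5* (0.69) and *RPC19* (264 RPKM against 131) were called higher than in *trf5fpr3*, where 20.7% of all genes were called higher. Relative to genes of similar length these 3 were not called, and *RPO26* (-0.86) and *RPB8* (-0.53) were called lower. *RPC19* was named after its values were seen. *RPC40*, which with *RPC19* encodes the assembly platform common to Pol I and Pol III, and *RPB8* were not called in any comparison by the chi-square rule without regard to length. *RPO26*, encoding another common subunit, was called lower in *fpr4* against *fpr3* (-0.82).

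The subunit genes of Pol II and Pol III were counted for comparison. In *fpr3*, 0 of 7 Pol II and 0 of 10 Pol III subunit genes were called against wild type by the chi-square rule, with medians of -0.03 and 0.02 beside 0.21 for the 7 Pol I subunit genes. Of all genes, 4.19% were called higher and 8.07% lower there. In *fpr4*, *RPO21*, the largest Pol II subunit gene, fell to 147 RPKM against 210 in wild type (-0.51, adjusted p 7.80e-14 in the chi-square test). *RPB4* of the Pol II stalk (-1.18) and *RPC53* of Pol III (-0.89) were called lower there too. In *fpr3fpr4*, the Pol III gene *RPC31* was called lower with 8 reads against 25, and in *sir2* the Pol III gene *RPC37* higher with 45 reads against 18. *RPC31* and *RPC37* fall outside the rule for named genes and were named after their values were seen. In the triple mutant, the large subunit genes *RPB2* of Pol II (-0.53) and *RPO31* of Pol III (-0.51) were called lower than in *trf5fpr3*, as *RPA190* was. *RPB4*, 666 bases long (1.21), and *RPC53*, 1269 bases long (0.99), were called higher. In all, 3 of 7 Pol I, 3 of 7 Pol II and 2 of 10 Pol III subunit genes were called higher in that comparison and 1 of each lower. The shares of all genes were 20.7% higher and 7.42% lower. Relative to genes of similar length, 0 of the 7 Pol I, 0 of the 7 Pol II and 1 of the 10 Pol III subunit genes (*RPC53*, 0.86) remained higher there. Called lower there were 0 Pol I, 1 Pol II (*RPB7*, -0.81) and 0 Pol III subunit genes. By the same rule *RPO21* was not called in *fpr4*. By that rule, 10.5% of all genes were called higher in the triple mutant and 12.1% lower. In *sir2* over wild type, the length-relative rule called 3 of 7 Pol I and 3 of 10 Pol III subunit genes higher. It called 2 of 7 shared genes higher and 1 lower, and 0 of 7 Pol II genes in either direction. Of all genes, 8.62% were called higher there. No test of a difference between the polymerases was run.

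**Figure D5:**
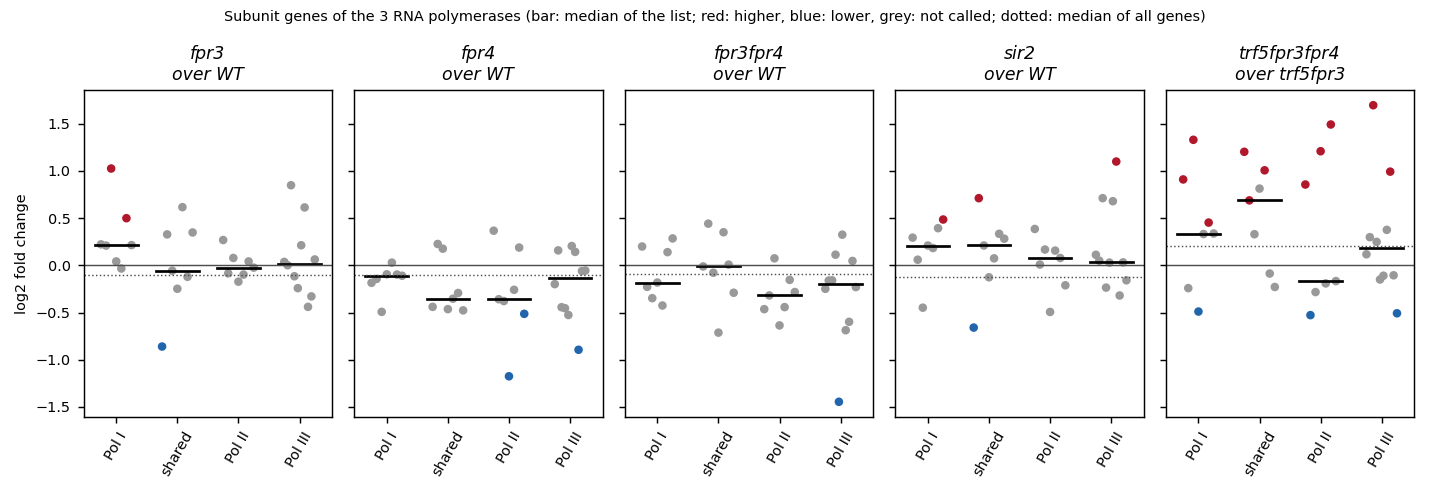
Log2 fold change (vertical axis) of the subunit genes of Pol I, of the shared subunits, of Pol II and of Pol III in 5 comparisons; each point is a gene, red called higher, blue called lower and grey not called, black bars are the list medians and the dotted line is the median of all genes. In *fpr3* over wild type the Pol I median is 0.21 beside -0.03 for Pol II and 0.02 for Pol III, and in the triple mutant each polymerase has genes called in both directions.

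The genes of the factors that bind the PAC and RRPE cores printed above were counted as well. *DOT6* fell to 91.5 RPKM in *fpr3fpr4* against 155 in wild type (-0.75, adjusted p 2.38e-07 in the chi-square test), and *STB3* to 16.1 against 36.8 (-1.15, adjusted p 0.00365 in the chi-square test). In *sir2*, *STB3* (-0.90), *DOT6* (-0.38) and *SFP1*, an activator of ribosome biogenesis genes (-0.80), were called lower and *RAP1*, which binds ribosomal protein promoters (0.45), higher. *TOD6*, the paralog of *DOT6*, was at 104 RPKM in the triple mutant against 44.9 in *trf5fpr3* (1.20). *TOD6* was named after its values were seen. Of the 9 regulator genes listed, 0 were called higher and 1 lower in *fpr3* (*ABF1*, -0.75, named after its values were seen), 0 higher and 0 lower in *fpr4*, 0 higher and 2 lower in *fpr3fpr4*, 1 higher and 3 lower in *sir2*, and 1 higher and 0 lower in the triple mutant. The shares of all genes called lower were 8.07% in *fpr3*, 9.27% in *fpr4*, 9.36% in *fpr3fpr4* and 14.6% in *sir2*, and 20.7% were called higher in the triple mutant. In *fpr3fpr4*, where *DOT6* and *STB3* were lower, *TOD6* (-0.22) and the 6 genes with both cores were not called. Whether the levels of these factors bear on the genes with their cores was not tested.

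Factors of the rDNA itself were listed as 7 genes. *REB1*, whose product binds the Pol I terminator region, was called lower in *fpr4* than in wild type (-0.42) and than in *fpr3* (-0.44). It was called higher in *fpr3fpr4* than in *fpr4* (0.49), and *RNT1*, the nuclease that cuts the ribosomal RNA precursor, likewise (1.26). *TOP1*, encoding topoisomerase I, was called lower in *fpr4* than in *fpr3* (-0.74), lower in *fpr3fpr4* than in *fpr3* (-0.74), and higher in the triple mutant than in *trf5fpr3* (0.88). *NET1*, an rDNA silencing factor, was called lower in the triple mutant (-0.41), but not relative to genes of similar length (-0.26). *TOF2*, which was named after its values were seen, had 3 reads there against 36 in *trf5fpr3*, with an interval of the log2 ratio of -5.54 to -1.54.

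*HMO1* was also set beside 5 other HMG-box genes. All 5, *NHP6A* (1.03), *NHP6B* (0.68), *ABF2* (1.40), *IXR1* (0.73) and *ROX1* (1.26), were called higher in the triple mutant than in *trf5fpr3*, as *HMO1* was. Of all genes, 20.7% were called higher there. Relative to genes of similar length, *ABF2*, *IXR1* and *ROX1* were also called higher, where 10.5% of all genes were. *NHP6A* (0.20), *NHP6B* (-0.185) and *HMO1* (0.36) were not called by that rule. In *fpr3fpr4* against wild type *ABF2*, a mitochondrial DNA packaging protein, was called higher (0.79) and *IXR1* lower (-0.92), while *HMO1* was at -0.01 (-0.26 to 0.24). *HMO1* had 258 reads in *fpr3*, 303 in *fpr4*, 258 in *fpr3fpr4* and 323 in *sir2*, against 282 in wild type, and its difference from wild type was within counting error in all 4.

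Some calls outside the 10 genes depended on scaling. With every gene set to the median, *RPB10* in *fpr3* and *sir2*, *REB1* in *fpr4* against wild type, *RPC31* in *fpr3fpr4*, *DOT6* in *sir2*, and *RRN6*, *RPB5*, *NHP6B* and *IXR1* in the triple mutant were not called. Scaling could also add calls. *RPC19* was then called higher in *fpr3* over wild type, at 0.72 with an adjusted p of 0.0259 in the chi-square test. Other calls added by scaling are not listed here.

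The mean log2 profile of the 7 subunit genes over the 7 libraries was compared with 2464 other genes that averaged at least 50 reads. The 5 genes most like it by Pearson's r, given as a description over 7 libraries of differing depth, were *LSB1* (0.99), *TOP1* (0.97), *ROK1* (0.96), *UBC4* (0.96) and *RRP7* (0.95). With so few libraries r spread widely, from -0.79 at percentile 5 of the 2464 genes to 0.80 at percentile 95. *LSB1*, the most alike, was at 166 RPKM in *fpr3*, 120 in *fpr4*, 127 in *fpr3fpr4* and 144 in *sir2*, against 130 in wild type. In the cross strains *LSB1* was at 228 in *trf5fpr3fpr4* against 160 in *trf5fpr3*. *RRP7*, the last of the 5, was at 107 RPKM in *fpr3*, 64.2 in *fpr4*, 68.7 in *fpr3fpr4* and 82.8 in *sir2*, against 68.6 in wild type. It was at 152 in *trf5fpr3fpr4* against 77.8 in *trf5fpr3*. The same r, to which each subunit gene itself contributes, was 0.98 for *RPA43* and 0.92 for *RPA14*, but -0.63 for *RPA190* and -0.25 for *RPA135*. It was 0.25 for *RPA49*, 0.80 for *RPA34* and 0.86 for *RPA12*, so that 3 of the 7 subunit genes, *RPA190*, *RPA135* and *RPA49*, did not follow the mean profile closely.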

How the data were processed

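The 10 genes and all gene lists were chosen with earlier results of these data known. The deposited tables, 1 per library, hold read counts that the authors obtained by aligning paired reads to sacCer3 with BWA, dropping ambiguous, duplicated and improperly paired reads, and counting reads on the proper strand in Ensembl genes. A second deposited column, named TPM, matched reads divided by gene length and library total to within 0.098%, so it was used as RPKM.

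A chi-square test (scipy 1.17.1) was run on every gene whose reads in the compared libraries summed to more than 5, with Benjamini-Hochberg adjustment over all genes tested, and folds used RPKM + 1. The rule follows the study's approach, with a 1.3-fold threshold. Fold intervals are exact binomial intervals at 95%. Ratios of ratios used a Wald test on log2 counts with 0.5 added. By rule, genes of the lists outside the 10 were named with values if among the 4 with most reads or called in 3 or more of the 8 comparisons. Those named beyond this rule are marked as named after their values were seen. Alternatives were pseudocounts of 0.1 and 5, an exact binomial test, other fold thresholds, median scaling, DESeq2 1.42.0 size factors, edgeR 4.0.16 with TMM and an assumed biological coefficient of variation of 0.1, no filter, and a length-relative rule chosen after seeing the data. Promoters were read from RefSeq R64, where all 10 genes matched the files' coordinates. Libraries were 1 per genotype, so p-values measure counting error between 2 libraries, and 3 reads was taken as the floor.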

Additional observations from a re-analysis of the deposited data

Results flagged for a closer look

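These genes are given because their change between libraries with and without Fpr4 differed between 2 backgrounds, by a test of the difference itself on 4 counts with binomial counting error. Of all genes, 19.0% passed in the contrast by Trf5 and 10.5% in the contrast by Fpr3. With 1 library per genotype, the test cannot separate genotype from variation between cultures. Loss of Trf5 also cannot be told apart from the different construction of the cross strains. Between cells without and with Trf5, the log2 difference of the change was 2.70 ± 0.36 for *RPA14*, 0.93 ± 0.35 for *RPA12*, 0.81 ± 0.25 for *RPA43*, 0.62 ± 0.21 for *HMO1* and -0.27 ± 0.09 for *RPA190* (standard error). Relative to genes of similar length, the values were 1.92 for *RPA14*, 0.14 for *RPA12*, 0.54 for *RPA43*, 0.35 for *HMO1* and -0.17 for *RPA190*, and of these *RPA14* kept an adjusted p below 0.05 (2.16e-06 with binomial counting error). Between cells without and with Fpr3, the difference was -0.29 ± 0.08 for *RPA135* and -0.46 relative to genes of similar length. The pair of contrasts share the *fpr3* and *fpr3fpr4* libraries, and 1 library stands for each genotype.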

How the results depend on the processing

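Pseudocounts of 0.1 and 5, the exact binomial test and the absence of a filter on reads left the number of the 10 genes called in each comparison as it was. A 1.5-fold threshold left 1 gene called in *fpr3* over wild type, 0 in *sir2* over wild type, 3 in *trf5fpr3fpr4* over *trf5fpr3*, 1 in *fpr3fpr4* over *fpr3* and 0 in *fpr3fpr4* over *fpr4*, and a 2-fold threshold left 1, 0, 1, 1 and 0 there and 1 in *fpr4* over *fpr3*. A 1.3-fold threshold with no test gave 1 in *fpr4* and 1 in *fpr3fpr4* over wild type, 3 in *sir2*, 4 in *fpr4* over *fpr3*, 4 in *fpr3fpr4* over *fpr3* and 4 in *fpr3fpr4* over *fpr4*. Of all genes, 40.5%, 42.8%, 45.0%, 39.5%, 38.4% and 35.9% passed it, in the same order. Median scaling and DESeq2 size factors each gave 2 in *sir2*, where each called 18.5% of all genes. edgeR with an assumed variation gave 1 in *fpr3*, 0 in *sir2*, 2 in the triple mutant, 1 in *fpr4* over *fpr3*, 1 in *fpr3fpr4* over *fpr3* and 0 in *fpr3fpr4* over *fpr4*. Of all genes, it called 1.51%, 5.50%, 12.2%, 0.983%, 1.20% and 0.252%, in the same order. The length-relative rule, chosen after seeing the data, gave 3 in *sir2*, 0 in the triple mutant, 1 in *fpr3fpr4* over *fpr3* and 0 in *fpr3fpr4* over *fpr4*. Of all genes, that rule called 18.1%, 22.6%, 9.78% and 6.64%, in the same order. For the ratios of ratios, centering and the length-relative rule each gave 2 genes in the contrast by Trf5 (5 as reported) and 2 in the contrast by Fpr3 (1 as reported). Of all genes, 19.2% passed with centering and 16.1% with the length-relative rule in the contrast by Trf5. In the contrast by Fpr3 these shares were 9.93% and 10.3%. Beyond what each setting changes by construction, the cause of these differences was not tested. No paired analysis was possible because each genotype has 1 library, and for the same reason no library could be left out. Depth limits *UAF30*, *RPA34* and *RRN3* most.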
